A study of Oryctolagus cuniculus with 12 samples.

Results

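The small leucine-rich proteoglycans (SLRPs) are a family of secreted matrix proteins, and 10 of their genes were followed here across normal rabbit ear skin and treated or untreated scar: DCN (decorin), BGN (biglycan), ASPN (asporin), LUM (lumican), FMOD (fibromodulin), PRELP, KERA (keratocan), OMD (osteomodulin), OGN (osteoglycin) and PODN (podocan). The genes were picked by symbol for their family, and the list was chosen with earlier results of these data known. Each of the 10 symbols matched 1 row of a table of 29587 genes, and all 10 were among the 13287 genes tested, which are those whose FPKM averaged 1 or more. FPKM counts the fragments on a gene relative to the gene's length and the library size, so levels of different genes can be set side by side.

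Bulk RNA-seq was performed on full thickness ear tissue of WT female rabbits aged 10 to 12 weeks, with 12 samples in 4 groups of 3 rabbits, all harvested on day 43. Normal skin (NS) came from rabbits that were neither wounded nor treated. Hypertrophic scar (HS) came from wounds on the ventral ear, from which epidermis, dermis and perichondrium (the sheath of the ear cartilage) had been cut away, and was left without treatment. The other 2 groups carried the same kind of scar and were treated on days 22, 29 and 36. The drug-loaded MNs group received a microneedle patch, 1 on each lesion. The gelatin-based tips of the patch hold a peptide prodrug of 5-fluorouracil acetic acid, a derivative of 5-fluorouracil. The 5-Fu injection group received 0.1 mL holding 120 μg of 5-fluorouracil per lesion. The 2 treatments thus differed in the compound as well as in its delivery. A drug-free patch was not analysed here, so an effect of the patch and an effect of its drug cannot be told apart. The limma p-values below set a difference against the spread between rabbits of the same group. That spread was estimated from all 4 groups in 1 fit, so samples outside a comparison also bear on its p-values.

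SLRPs share a core of leucine-rich repeats that lies along the surface of collagen fibrils, where it governs how thick the fibrils grow and how they are spaced. Many members carry sugar chains, chondroitin or dermatan sulfate on decorin and biglycan and keratan sulfate on lumican, keratocan and fibromodulin, and several also hold growth factors of the TGF-beta family or signal to cells when released from the matrix. In skin they are made mainly by dermal fibroblasts, and decorin and lumican are part of the normal dermis. Class I of the family comprises decorin, biglycan and asporin, class II holds lumican, fibromodulin, PRELP, keratocan and osteomodulin, class III holds osteoglycin, and podocan belongs to a class of its own kind.

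Between 10521472 and 14043667 reads fell on genes in each sample. The FPKM rest on a library size that differs from these totals. By it, a single read on 1 kilobase of transcript was worth 0.0768 to 0.0972 FPKM. Divided by the reads on genes, that library size was 1.12 to 1.20 for NS samples and 0.873 to 0.932 for HS samples. For the treated samples it was 0.953 to 1.03. The deposited FPKM thus carry a scaling that differs between NS and HS. The members rested on 28 reads at the least (OMD in HS replicate 1) and 79376 at the most (LUM in an HS sample), so counting error weighs most on OMD. Among the samples, HS replicate 1 stood apart within its group by low values of 2 fibroblast markers (MFAP5 28.5 against 177 and 181, DPT 28.5 against 85.0 and 83.2) and a high value of the bone gene IBSP (87.1 against 0.317 and 2.86). The fibroblast markers did not all move one way there: THY1 was also the lowest of the group (189.7 against 587 and 390.0), whereas FBLN1 (334 against 196 and 194) and PDGFRB (184 against 161 and 175) were the highest. The other osteoblast markers did not go with IBSP, as BGLAP was the lowest of the group there (70.9 against 78.4 and 81.9) and SP7 lay between the others (0.243 against 0.346 and 0.160). In the 5-Fu injection group, replicate 2 stood apart with a COL1A1 of 9220 against 1053 and 1438. In bulk tissue, fewer cells of a type and less RNA per cell cannot be told apart.

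SLRP transcripts took up a larger share of the transcriptome in scar than in normal skin. The summed FPKM of the 10 genes lay between 1592 and 2506 in NS, between 8540 and 8660 in HS and between 5447 and 6286 in the drug-loaded MNs group. In the 5-Fu injection group the sums were 3070, 5433 and 2410 for replicates 1, 2 and 3. HS was above every other sample and NS overlapped only with the lowest 5-Fu sample. As a share of all reads on genes, the members made up 0.370% to 0.558% in NS, 1.48% to 1.59% in HS, 1.06% to 1.26% with drug-loaded MNs and 0.507% to 1.04% with 5-Fu injection.

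**Figure D1:**
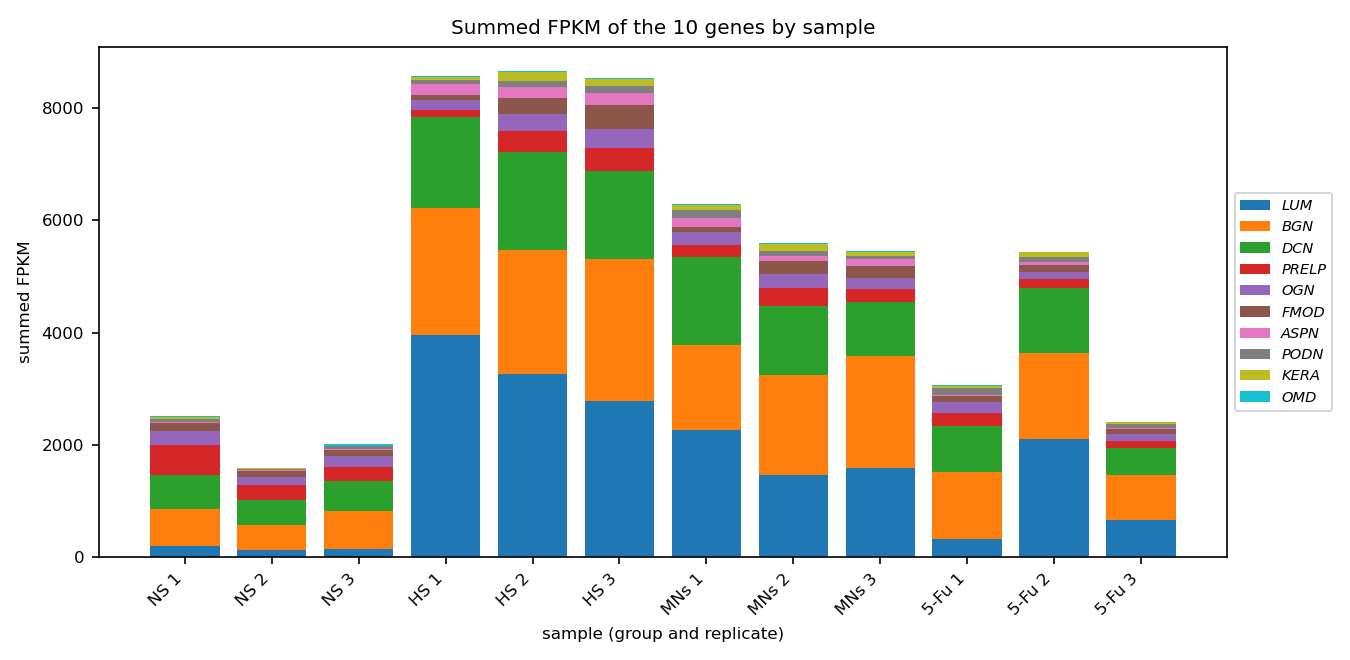
Stacked bars give the summed FPKM (linear axis from 0) of the 10 SLRP genes in each of the 12 samples, with 1 colour per gene. The 3 HS bars reach 8540 to 8660, mostly through LUM, BGN and DCN, whereas the NS bars reach 1592 to 2506.

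The composition of this pool also differed. LUM, BGN and DCN together held 58.4% to 67.2% of the members' summed FPKM in NS, 80.7% to 91.6% in HS, 80.0% to 84.9% with drug-loaded MNs and 76.0% to 88.3% with 5-Fu injection. LUM was below BGN, DCN, PRELP and OGN in every NS sample and was the highest member in every HS sample. Among all listed genes, LUM stood at rank 543 by mean FPKM in NS and at rank 15 in HS, 44 with drug-loaded MNs and 97 with 5-Fu injection. ASPN moved from rank 6228 in NS to 438 in HS.

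In the comparison of HS with NS, which asks what sets untreated scar apart from normal skin, 5 of the 10 genes rose and 0 fell. The 5 were LUM, ASPN, KERA, BGN and DCN, which rose between 3.07-fold and 22.2-fold by their mean FPKM. A gene was called here when the limma adjusted p was under 0.05 and the log2 fold change of FPKM + 1 exceeded 1 in size, and 3.53% of all genes tested were called higher by this rule. The HS and NS samples did not overlap for 6 members, all higher in HS, against 18.0% of all genes tested. The median log2 fold change of the 10 members was 1.47, and that of all genes tested was -0.01.

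**Figure D2:**
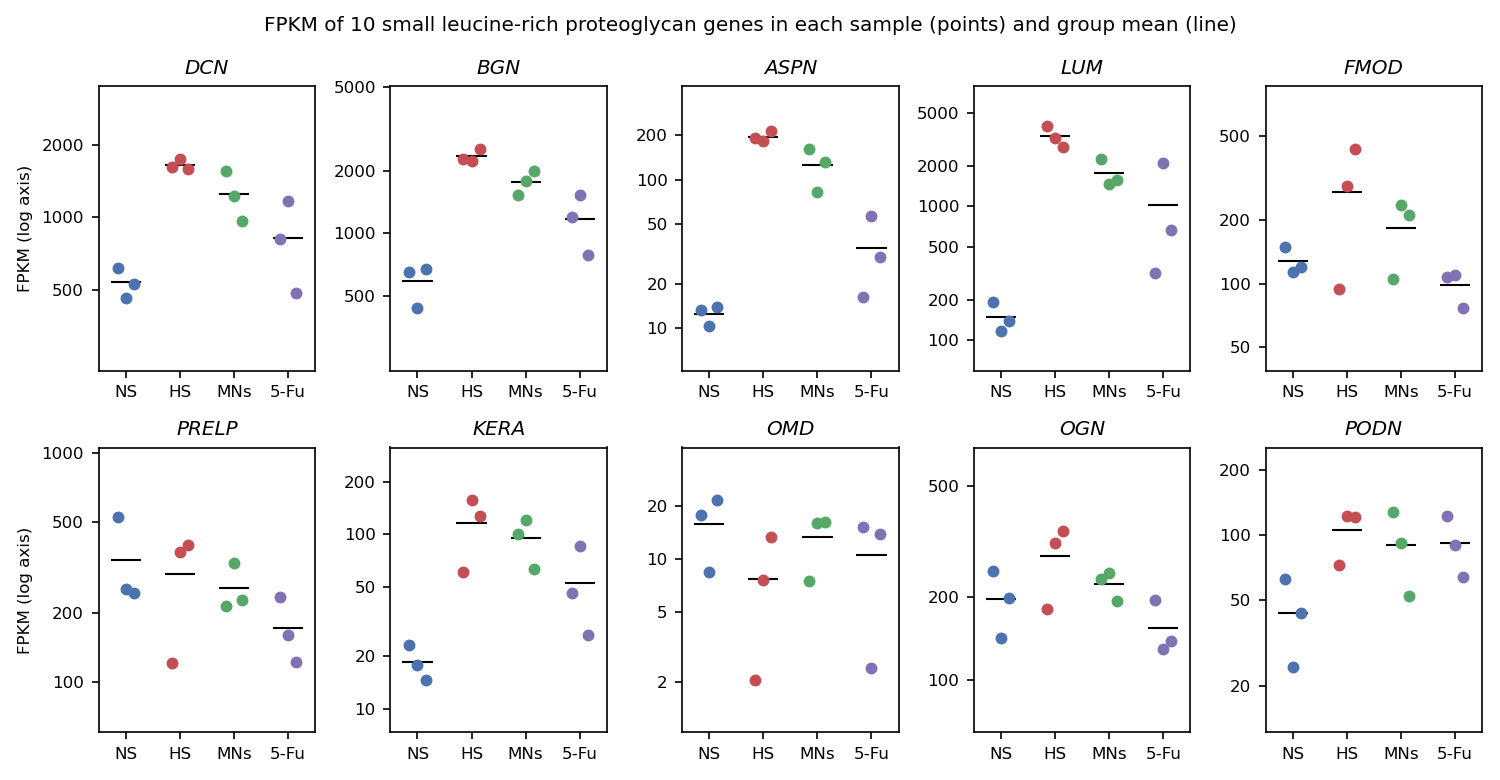
Points give the FPKM of each SLRP gene in each sample on a log axis, with 1 panel per gene and its own range, and lines give the group means of 3 samples. LUM, BGN, DCN, ASPN and KERA of HS lie above NS in every sample, whereas PRELP, OMD, OGN and FMOD overlap between those groups.

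DCN, the class I proteoglycan that binds collagen I fibrils and TGF-beta, had FPKM values of 618, 463 and 531 in NS and 1619.6, 1746 and 1578 in HS. The HS values lay close together and well above NS, at a mean of 1648 ± 87.8 against 537 ± 78.0 (SD, n = 3). DCN was higher in HS by 1.62 on the log2 scale (SE 0.29, limma adjusted p = 0.00874).

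BGN, the close relative of decorin that carries a further sugar chain and also signals to innate immune receptors, had values of 654, 440.4 and 676 in NS and 2265, 2213 and 2536 in HS. The groups were far apart, with means of 590.3 ± 130.3 and 2338 ± 173 (SD, n = 3). BGN rose by 2.01 on the log2 scale (SE 0.26, limma adjusted p = 0.00194).

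ASPN, the class I member that carries a run of aspartate residues in place of a sugar chain and can bind TGF-beta, had the lowest normal level of its class. Its FPKM was 13.4, 10.3 and 13.9 in NS and 189, 182 and 213 in HS. Every HS value was far above every NS value, and the rise of 15.5-fold by mean FPKM amounted to 3.86 on the log2 scale (SE 0.37, limma adjusted p = 0.000748).

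LUM, the class II keratan sulfate proteoglycan of cornea and dermis, had values of 192, 118 and 139 in NS and 3961, 3257 and 2775 in HS. It had the widest gap of all members, 22.2-fold by mean FPKM, and rose by 4.48 on the log2 scale (SE 0.53, limma adjusted p = 0.00134).

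KERA, best known from the corneal stroma, had values of 23.3, 17.8 and 14.7 in NS and 61.2, 157 and 128 in HS. The lowest HS value, in replicate 1, was still above all NS values. KERA rose by 2.49 on the log2 scale (SE 0.44, limma adjusted p = 0.00733), and by 2.89 without HS replicate 1 (limma adjusted p = 0.00774).

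The other class II members did not pass the test. FMOD, which binds collagen I and steers its crosslinking, had values of 149, 113 and 120.5 in NS and 94.5, 290.3 and 434 in HS. HS replicate 1 lay below all NS samples and the other 2 lay above them. The log2 difference was 0.85 (SE 0.48, limma adjusted p = 0.319), and without HS replicate 1 it was 1.48 and past the threshold (limma adjusted p = 0.0410), which made 6 members called.

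PRELP, a basic proteoglycan that anchors basement membranes to collagen, had values of 529, 255 and 246 in NS and 121, 371 and 397 in HS. The groups overlapped, with 1 high NS sample and 1 low HS sample. The log2 difference of -0.30 (SE 0.46, limma adjusted p = 0.738) had no stable sign: it was 0.06 without NS replicate 1 and 0.25 without HS replicate 1.

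OMD, the acidic member found in mineralised tissue, had values of 17.8, 8.50 and 21.6 in NS and 2.06, 7.63 and 13.3 in HS. It was the lowest of the 10 members in every scar sample, treated or not, whereas in NS the mean of ASPN was lower still, at 12.5 against 16.0. The ranges overlapped, and the log2 difference was -1.14 (SE 0.67, limma adjusted p = 0.347) with all samples and -0.52 (limma adjusted p = 0.708) without HS replicate 1.

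OGN, the class III member also called mimecan, had values of 247, 142 and 198 in NS and 181, 313 and 345 in HS, with a log2 difference of 0.49 (SE 0.27, limma adjusted p = 0.313). The lowest HS sample, replicate 1, fell within the NS range, and without it the difference was 0.78 (limma adjusted p = 0.127). PODN, which binds collagen I and can slow smooth muscle cell growth, had values of 62.7, 24.4 and 43.7 in NS and 72.9, 123 and 122 in HS. The PODN groups did not overlap, but the log2 difference of 1.32 (SE 0.40) missed the threshold (limma adjusted p = 0.0720), as did 1.56 without HS replicate 1 (limma adjusted p = 0.0841).

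HS replicate 1 had the lowest value of its group for FMOD, PRELP, OMD, OGN, KERA and PODN, and the highest for LUM. The part of the fibroblast marker and bone gene values of that library in these 7 genes was not tested. The scaling between samples bore on the size of the changes. When FPKM were rescaled to the total of reads on genes, the median of all genes tested shifted to -0.33, and the calls over all genes went from 469 higher and 196 lower to 311 higher and 751 lower. The 5 called members stayed called under this scaling, with LUM at 4.12, ASPN at 3.51, KERA at 2.14, BGN at 1.64 and DCN at 1.26 on the log2 scale, and no member changed sign.

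**Figure D3:**
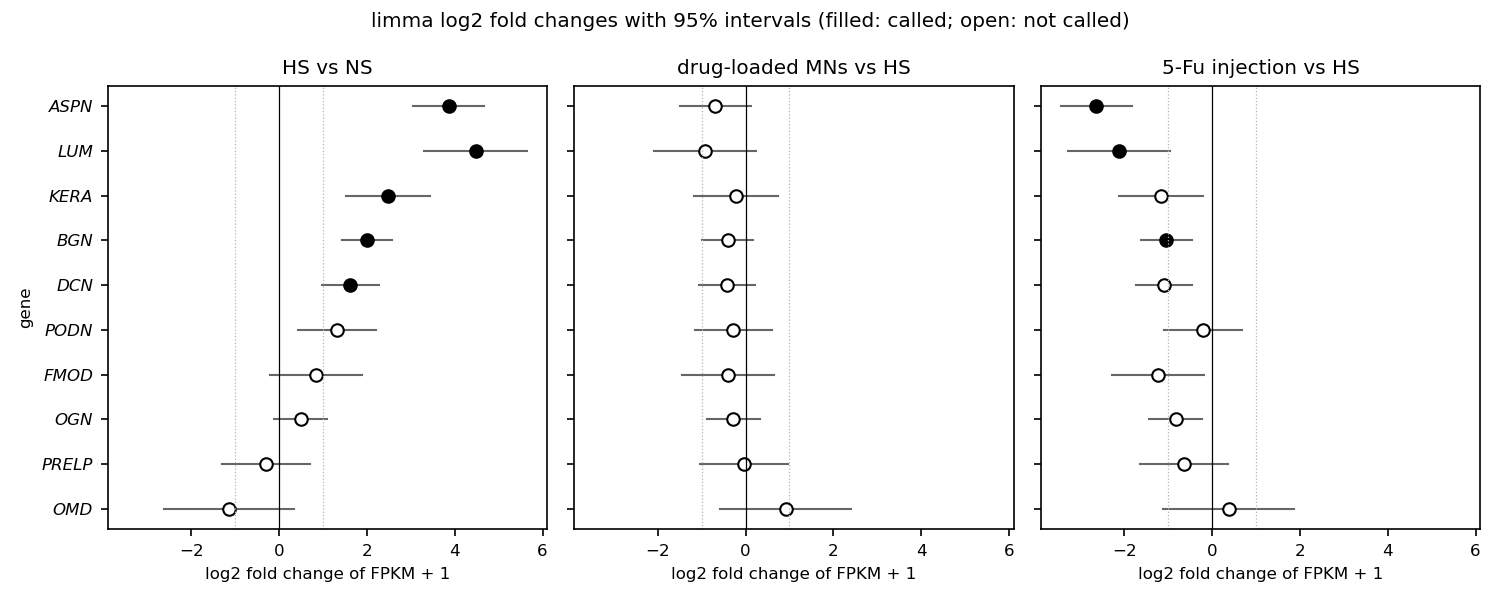
Points give the limma log2 fold change of FPKM + 1 for each SLRP gene in 3 comparisons, bars the 95% interval, filled points the called genes, and dotted lines the fold threshold. In HS vs NS, 5 genes are filled, in drug-loaded MNs vs HS 0, and in 5-Fu injection vs HS 3.

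Setting drug-loaded MNs against HS asks how the patch changed the scar. 9 of the 10 genes had lower mean log2 levels after the patch and OMD had a higher one, but 0 of the 10 were called by limma, and 0 had an unadjusted p under 0.05. limma voom on the reads counted back from the FPKM also called 0. Over all genes tested, limma called 0.00753%, which was 1 gene, whereas 1183 genes had an unadjusted p under 0.05. The median log2 fold change was -0.34 for the members and -0.02 for all genes tested.

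The patch-treated samples nevertheless lay below all HS samples for 4 members, LUM, BGN, DCN and ASPN, where 10.3% of all genes tested had such a gap. LUM had FPKM values of 2257, 1460.3 and 1584 after the patch, all under the HS minimum of 2775. The log2 difference was -0.93, with a 95% interval from -2.09 to 0.24 (limma adjusted p = 0.647). For ASPN the values were 160.4, 82.5 and 130.3, the log2 difference -0.69 and its interval -1.50 to 0.12 (limma adjusted p = 0.625).

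BGN was at 1522, 1784 and 1999 after the patch, a log2 difference of -0.41 with an interval from -0.99 to 0.17. DCN was at 1559, 1224 and 968, a log2 difference of -0.42 with an interval from -1.07 to 0.22. In both, the highest treated sample was close to the lowest HS sample. The intervals of these 4 genes therefore include no change and, for LUM, ASPN and DCN, also a fall of more than 1 on the log2 scale. With each sample left out, the difference ranged from -0.90 to -0.42 for ASPN and from -0.60 to -0.25 for DCN.

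The remaining members overlapped between the patch group and HS. KERA was at 100.3, 120.4 and 63.6 after the patch, FMOD at 105, 235 and 211, and OGN at 231, 244 and 193. Their log2 differences were -0.23, -0.40 and -0.28. That of OGN ranged from -0.57 to -0.10 with each sample left out. PODN (127, 91.5 and 52.2) differed by -0.28 and PRELP (215, 330.3 and 229) by -0.04, and the latter became 0.11 when FPKM were rescaled to total reads. The signs of FMOD, KERA, PRELP and PODN were not stable, since leaving out single HS or drug-loaded MNs samples took them as high as 0.06, 0.05, 0.26 and 0.07. OMD was at 7.48, 16.2 and 16.3, a log2 difference of 0.91 with a 95% interval from -0.57 to 2.39, and 0.29 without HS replicate 1.

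In the comparison of 5-Fu injection with HS, 3 members fell: ASPN, LUM and BGN. Among all genes tested, 1.78% were called lower. A further 4 members (DCN, OGN, FMOD and KERA) were lower with an unadjusted p under 0.05 and were not called, so that 7 members had such a p, as did 3449 of all 13287 genes tested. The injected samples lay below all HS samples for ASPN, LUM, BGN and DCN, a gap that 16.4% of all genes tested showed in this direction. The median log2 fold change was -1.07 for the members and 0.02 for all genes tested.

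ASPN had FPKM values of 16.2, 56.7 and 30.3 after 5-Fu injection. All 3 were far below the HS minimum of 182 and also below the minimum of 82.5 in the drug-loaded MNs group, so that no 2 of the 4 groups overlapped for ASPN. It fell by 2.63 on the log2 scale (SE 0.37, limma adjusted p = 0.0184), a 5.65-fold lower mean than in HS.

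LUM had values of 315, 2101 and 660.1, so replicate 2 came near the HS range and the other 2 did not. It fell by 2.12 on the log2 scale (SE 0.53, limma adjusted p = 0.0492). BGN had values of 1204, 1534 and 791 and fell by 1.04 (SE 0.26, limma adjusted p = 0.0498).

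DCN had values of 814, 1163 and 486 after the injection. These samples were all under the HS minimum of 1578, and the log2 difference of -1.09 (SE 0.29) missed the threshold (limma adjusted p = 0.0585). Both calls of LUM and BGN and the missed call of DCN were thus close to the threshold.

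The calls in this comparison depended on single libraries. Without 5-Fu replicate 2, 5 members were called, namely ASPN at -3.07, LUM at -2.85, KERA at -1.58, DCN at -1.39 and BGN at -1.26 on the log2 scale. Without any of the 3 HS samples or without 5-Fu replicate 3, 0 were called, with the ASPN limma adjusted p between 0.0537 and 0.0866. Without NS replicate 1, NS replicate 3, any drug-loaded MNs sample or 5-Fu replicate 1, 1 was called, ASPN, and without NS replicate 2 it was 2, ASPN and BGN. All members named here kept their direction throughout. With only the groups compared in the fit, 0 were called, ASPN then being at a limma adjusted p of 0.0967. A pseudocount of 0.1, no filter, rescaling to total reads and limma voom each left 1 call, ASPN.

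The rest of the family had wide intervals after 5-Fu injection. FMOD, at 107, 110.2 and 76.9, differed from HS by -1.23 on the log2 scale (limma adjusted p = 0.136). KERA, at 46.1, 85.8 and 26.7, differed by -1.16 (limma adjusted p = 0.127). OGN, at 194, 129 and 138, differed by -0.83 (limma adjusted p = 0.0960). Leaving out single samples moved them between -1.86 and -0.77 for FMOD, -1.58 and -0.76 for KERA and -1.11 and -0.65 for OGN. Each of these 3 overlapped with HS through HS replicate 1 only, the other 2 HS samples being above all injected samples. PRELP (236, 161 and 122) differed by -0.64, PODN (122, 90.5 and 64.1) by -0.20 and OMD (15.3, 2.40 and 14.0) by 0.38, all with overlapping groups. The sign of OMD turned to -0.24 without HS replicate 1, and that of PODN to 0.03 without 5-Fu replicate 3. PRELP kept its sign but ranged from -1.20 to -0.34 with each sample left out.

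Compared directly with 5-Fu injection, the drug-loaded MNs group had higher mean log2 levels of 9 members and a lower one of PODN, at -0.07. limma called 0 members and 0 genes in all, a share of 0%, and voom also called 0 members. 4 members and 2009 of all genes tested had an unadjusted p under 0.05. The 4 were ASPN at 1.94, LUM at 1.19, DCN at 0.67 and BGN at 0.63 on the log2 scale. With each sample left out in turn these ranged from 1.51 to 2.38 for ASPN, 0.56 to 1.92 for LUM (lowest without 5-Fu replicate 1, highest without 5-Fu replicate 2), 0.33 to 0.96 for DCN and 0.37 to 0.85 for BGN (both lowest without 5-Fu replicate 3 and highest without 5-Fu replicate 2). Only ASPN separated the groups, where 8.64% of all genes tested were separated with the patch group higher. Its 95% interval ran from 1.13 to 2.75 with a limma adjusted p of 0.179, and without 5-Fu replicate 2 it was called at 2.38 (limma adjusted p = 0.0275).

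Set against NS, the scar treated with drug-loaded MNs still had 4 members called higher, against 0.790% of all genes tested. LUM was 3.56 above NS on the log2 scale (limma adjusted p = 0.0201), ASPN 3.17 (limma adjusted p = 0.0136), KERA 2.26 (limma adjusted p = 0.0402) and BGN 1.60 (limma adjusted p = 0.0232). DCN, at 1.20, did not pass (limma adjusted p = 0.0979) but did not overlap with NS, which made 5 members without overlap, against 11.5% of all genes tested. PODN differed by 1.04 (limma adjusted p = 0.297).

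Single libraries bore on these calls too. Without NS replicate 2 or drug-loaded MNs replicate 3, 0 members were called, and without NS replicate 1, drug-loaded MNs replicate 1 or drug-loaded MNs replicate 2, 1 was called, ASPN. Without 5-Fu replicate 2 or 3, which enter through the shared spread, 5 were called, DCN being the fifth. Without a filter on low values 2 were called, LUM and ASPN. The log2 differences themselves stayed between 2.96 and 3.44 for ASPN and between 3.37 and 3.75 for LUM when any NS or drug-loaded MNs sample was left out.

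After 5-Fu injection, 0 members were called against NS by limma and 0 by voom, while limma called 1 gene of all tested (0.00753%), and 1981 genes and 5 members had an unadjusted p under 0.05. These 5 were LUM at 2.36, KERA at 1.33, ASPN at 1.23, PODN at 1.11 and BGN at 0.97 on the log2 scale, and each of them was higher in every injected sample than in any NS sample, as were 9.60% of all genes tested. PRELP, at -0.94, and FMOD, at -0.38, lay below NS in every injected sample, as did 9.16% of all genes tested. With each sample left out, PRELP ranged from -1.19 to -0.58 and FMOD from -0.48 to -0.22. LUM was called without 5-Fu replicate 1, at 3.00 (limma adjusted p = 0.0416), and ASPN ranged from 0.79 to 1.66 with each sample left out. A comparison that was called in 1 treated group and not in the other is not shown to differ between them, for which the direct comparison of the treatments stands. All comparisons with HS share the HS samples and all comparisons with NS share the NS samples.

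Ratios of 2 genes within a sample do not depend on the scaling between samples. Groups were set against each other with the exact permutation test, two-sided, which for 3 against 3 samples cannot go below p = 0.1, so they serve as a description. The 4 ratios and 6 comparisons made 24 tests. The BGN over DCN ratio, on the log2 scale, was 0.12 ± 0.21 in NS and 0.50 ± 0.17 in HS (SD, n = 3), with overlapping values (exact p = 0.2, adjusted p = 0.48). The FMOD over LUM ratio was -0.21 ± 0.16 in NS and -3.84 ± 1.39 in HS (SD, n = 3), without overlap (exact p = 0.1, adjusted p = 0.3). The difference between HS and NS was -3.63 with all samples and -2.87 without HS replicate 1, the lowest at -5.37. FMOD and LUM, which compete for the same stretch of collagen I, were thus at nearly equal levels in NS and far apart in HS.

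DCN and LUM differed in how they stood to COL1A1, the main chain of the collagen I fibrils they coat, which was at 772 ± 108 in NS and 15711 ± 3134 in HS (FPKM, SD, n = 3). The log2 ratio of DCN to COL1A1 was -0.52 ± 0.09 in NS and -3.23 ± 0.24 in HS (SD, n = 3), without overlap (exact p = 0.1, adjusted p = 0.3). It was -2.57 ± 0.18 in the drug-loaded MNs group (SD, n = 3), above all HS samples (exact p = 0.1, adjusted p = 0.3). In the 5-Fu injection group it ranged widely, at -1.64 ± 1.31 (SD, n = 3), with replicate 2 among the HS values, and its difference from HS of 1.59 was 2.27 without that replicate.

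The LUM to COL1A1 ratio was -2.38 ± 0.18 in NS and -2.23 ± 0.48 in HS (SD, n = 3), with overlapping values (exact p = 0.8, adjusted p = 0.939). The difference of 0.15 became -0.13 without HS replicate 1. Thus there was less DCN transcript per COL1A1 transcript in HS than in NS, in every sample, whereas the LUM values per COL1A1 overlapped.

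**Figure D4:**
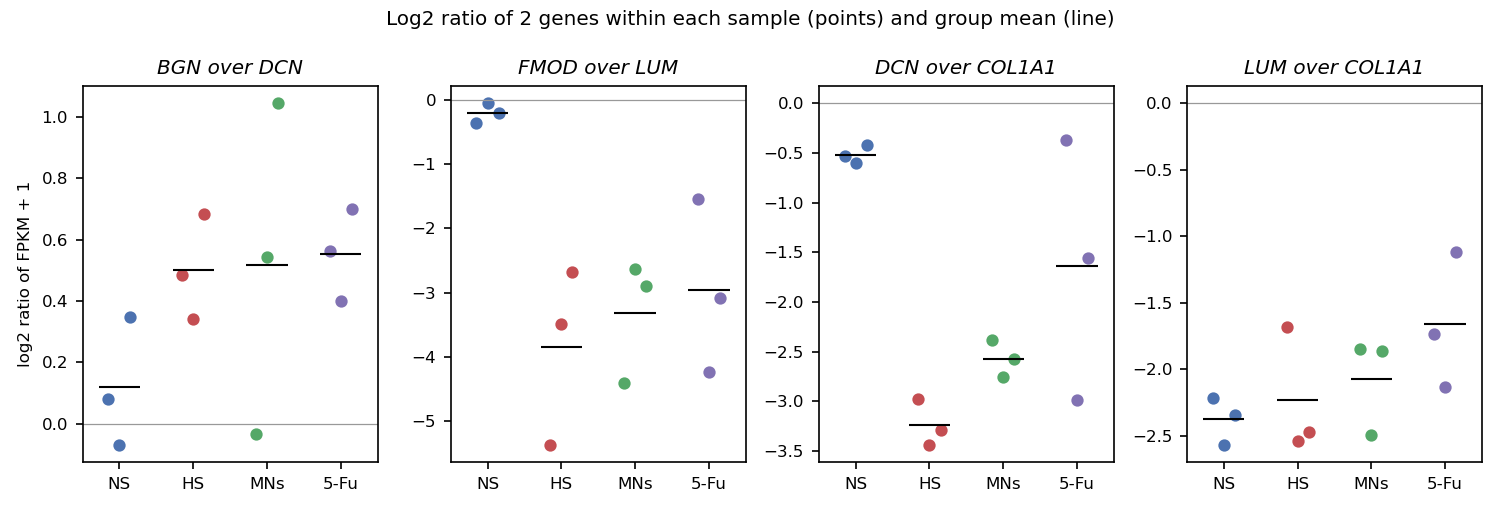
Points give the log2 ratio of FPKM + 1 of 2 genes within each sample and lines the group means, with each panel on its own linear axis. DCN over COL1A1 is near -0.52 in NS and -3.23 in HS with no overlap, while LUM over COL1A1 overlaps between all groups but NS and 5-Fu.

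Because fibroblasts are the main source of SLRPs, the members were also set against 5 fibroblast markers (PDGFRB, DPT, THY1, MFAP5 and FBLN1, of 6 looked for, all above 0 in every sample). This measure was chosen after the values had been seen and carries no test. The summed FPKM of the markers was 378 to 556 in NS, 765 to 1207 in HS, 531 to 899 with drug-loaded MNs and 350.3 to 613 in the 5-Fu injection group. The marker sum was thus higher in every HS than in any NS sample, but the single markers were not uniform. PDGFRB and FBLN1 separated the groups. In HS replicate 1, MFAP5 (28.5) was below all NS samples (60.4 to 68.9). DPT (28.5) and THY1 (189.7) lay there within the NS ranges, 28.4 to 36.2 and 129 to 213. The part of the marker sum in the members' rise was not tested beyond this ratio. Relative to the marker sum, LUM was 3.39 higher in HS than in NS on the log2 scale, ASPN 2.87 and KERA 1.45. BGN was 0.91 higher and DCN 0.53, and each of these members was without overlap.

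The members that were not called changed place by this measure. PODN was 0.24 higher and overlapped, and was 0.01 without NS replicate 2. FMOD also overlapped and had no stable sign, at -0.25 with all samples and 0.21 without HS replicate 1. OGN at -0.60, PRELP at -1.40 and OMD at -2.42 lay below NS in every HS sample. Between 5-Fu injection and HS, ASPN was lower by -1.67 without overlap and PODN higher by 0.80 without overlap, while LUM differed by -1.11, DCN by -0.08 and BGN by -0.03 with overlap. LUM was at -0.40 without 5-Fu replicate 1 and -1.68 without 5-Fu replicate 2, and DCN and BGN at 0.08 and 0.13 without HS replicate 1. PODN stayed between 0.65 and 0.96 with each sample left out. OGN was at 0.18, and at 0.00 without 5-Fu replicate 3, and PRELP at 0.36, and at -0.01 without HS replicate 1. No member separated drug-loaded MNs from HS relative to the markers. PRELP, KERA, OGN and PODN differed there by 0.34, 0.16, 0.11 and 0.11, and these signs rested on single libraries, since PRELP was at -0.03 and KERA at -0.07 without HS replicate 1, OGN at -0.05 without drug-loaded MNs replicate 3 and PODN at -0.06 without drug-loaded MNs replicate 1. OMD was higher there by 1.46 (0.88 to 2.015 with each sample left out) and LUM differed by -0.54 (-0.73 to -0.23), both with overlap. Between 5-Fu injection and HS, OMD differed by 1.44 (0.80 to 2.47), also with overlap.

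**Figure D5:**
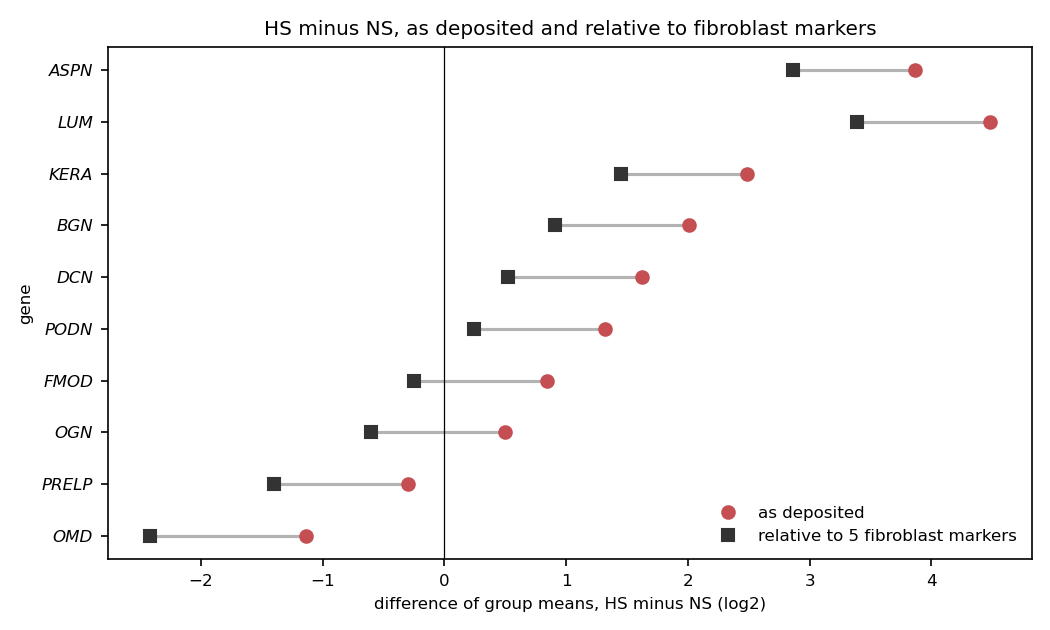
For each SLRP gene, the circle gives the log2 difference of HS minus NS as deposited and the square the same difference relative to the summed FPKM of 5 fibroblast markers. All genes shift to the left, LUM from 4.48 to 3.39, and OGN changes sign to -0.60, as does FMOD to -0.25, though FMOD is at 0.21 without HS replicate 1.

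Other tissues of the full thickness ear varied between samples as well. Of 11 chondrocyte markers 10 were found, all above 0 in every sample, and their summed FPKM was 1720 to 3573 in NS, 522 to 5179 in HS, 919 to 5389 with drug-loaded MNs and 509 to 5768 in the 5-Fu injection group. FMOD, PRELP and OMD, known from cartilage and bone, were each lowest among HS samples in replicate 1, where the chondrocyte sum was 522, and highest in replicate 3, where it was 5179. In the 5-Fu injection group, OMD was lowest in replicate 2 (chondrocyte sum 509) and highest in replicate 1 (5768). PRELP was also highest in replicate 1 but lowest in replicate 3, and FMOD was highest in replicate 2. In NS, FMOD was highest in replicate 1 (chondrocyte sum 3573) and lowest in replicate 2 (1720). OMD was also lowest in NS replicate 2 but highest in NS replicate 3. PRELP was also highest in NS replicate 1 but lowest in NS replicate 3. With drug-loaded MNs, each of the genes was lowest in replicate 1 (919). FMOD and PRELP were highest in drug-loaded MNs replicate 2 (2499), and OMD in replicate 3 (5389). The part of cartilage content in the levels of these genes was not tested. Of 3 tendon markers 2 were found, TNMD and MKX, both above 0 in every sample. MKX was at 3.37 to 4.50 in NS and 3.76 to 10.6 in HS, which overlapped, whereas TNMD was at 1.89 to 3.10 in NS, 49.0 to 55.3 in HS, 18.0 to 31.6 with drug-loaded MNs and 1.08, 40.4 and 8.89 in the 5-Fu injection group. TNMD, LUM and ASPN thus all had their highest 5-Fu value in replicate 2. Keratinocyte markers, 6 of 8 found and all above 0, summed to 2403 to 4031 in NS, 1400 to 1993 in HS, 3832 to 9059 with drug-loaded MNs and 2962 to 5572 in the 5-Fu injection group, so that HS was lowest. The 4 Schwann cell markers, all above 0, summed to 278 to 678 in NS, 76.5 to 161 in HS, 66.2 to 209 with drug-loaded MNs and 111 to 369 in the 5-Fu injection group, again without overlap between HS and NS. Skeletal muscle markers, 6 of 7 found and 3 above 0 in every sample, summed to 10.7 to 74.5 in NS and 5.89 to 9.48 in HS. NS replicate 3 stood apart in smooth muscle markers, 3 of 5 found, with a sum of 1755 against 392 and 326. The sums of osteoblast, adipocyte, endothelial, immune and smooth muscle markers overlapped between HS and NS. The part of the epidermal, nerve and muscle shares in the SLRP levels was not tested.

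Several SLRP genes lie next to each other in the genome, and these neighbours did not all show the same differences. KERA, LUM and DCN stand with EPYC on chromosome 4 (70179774 to 70394929 in the coordinates of the table, whose build is not given in the sources used here), with 0 other listed genes between them, and KERA, LUM and DCN were all called higher in HS, as was EPYC at 3.31 on the log2 scale. OGN, OMD and ASPN stand with ECM2 on chromosome 1 (70251553 to 70372106), again with 0 other listed genes inside. There ASPN was called at 3.86 and ECM2 at 1.38, whereas OGN was at 0.49 and OMD at -1.14, neither called. PRELP and FMOD lie with OPTC on chromosome 16 (68330004 to 68543160), and neither was called. The listed span of FMOD falls within that of PRELP on the other strand, and whether the counting used strand is not stated, so reads of these genes cannot be told apart where their exons overlap. BGN lies on an unplaced scaffold and PODN on chromosome 13.

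The rest of the family was searched for by symbol. Of 8 further SLRP and SLRP-like genes, 6 were found and 4 tested, of which 3 were called higher in HS than in NS, against a background of 3.53%, and 0 lower, with a median log2 fold change of 1.34 beside -0.01 for all genes tested. EPYC (epiphycan, a cartilage member) rose by 3.31 (SE 0.71, limma adjusted p = 0.0186) and ECM2 by 1.38 (SE 0.29, limma adjusted p = 0.0178). EPYC was at 9.85 in HS replicate 1 and at 86.0 and 46.9 in the other 2, all above the NS maximum of 4.77, and voom did not call it. The 3 calls fell to 1, TSKU, without NS replicate 1, NS replicate 2, HS replicate 2 or HS replicate 3. When FPKM were rescaled to total reads, TSKU was the one lost and 2 calls were left, ECM2 and EPYC. In 5-Fu injection vs HS, 1 gene was called lower, TSKU at -1.07 (limma adjusted p = 0.0294), against 1.78% of all genes tested, and it was not called without any of the 3 HS samples, without 5-Fu replicate 1 or 3, without a filter, when rescaled to total reads or with only the groups compared in the fit. In drug-loaded MNs vs HS, 0 were called.

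Enzymes that build chondroitin and dermatan sulfate chains, the side chains of DCN and BGN, gave a mixed picture. Of 22 genes, 17 were tested, and 3 were called higher and 1 lower in HS than in NS, with a median of 0.44, where 3.53% of all genes tested were called higher and 1.48% lower. CHSY3, a chain polymerase, rose by 1.62 (limma adjusted p = 0.00698), and DSEL, an epimerase that turns chondroitin into dermatan sulfate, by 1.20 (limma adjusted p = 0.0331). The DSEL call was lost without any of the 3 NS samples, without HS replicate 2 or 3, without drug-loaded MNs replicate 2, without a filter and when FPKM were rescaled to total reads. CHST3, which sulfates chondroitin, fell by 1.86 (limma adjusted p = 0.0181) and was not called without NS replicate 1, HS replicate 1 or HS replicate 2. Without NS replicate 2 the counts were 1 higher and 1 lower. When FPKM were rescaled to total reads, the counts were 1 higher and 2 lower. Against HS, 2 were called lower after 5-Fu injection, CHSY3 at -1.65 (limma adjusted p = 0.0233) and DSEL at -1.21 (limma adjusted p = 0.0451), beside the background of 1.78%. These became 0 without any of the 3 HS samples, without 5-Fu replicate 1 or 3 or with only the groups compared, and 1, CHSY3, without any NS sample, without drug-loaded MNs replicate 1 or 2, without a filter or when rescaled. Of 9 genes of keratan sulfate synthesis, 7 were tested, and 1 was called, CHST2, a sulfotransferase, higher in HS by 1.73 (limma adjusted p = 0.00981), with a list median of 0.18 and the same background of 3.53%.

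Of 12 genes for proteases known to cut SLRPs, with an enhancer among them, 8 were tested and 5 were called higher in HS than in NS (background 3.53%), 0 lower, with a median log2 fold change of 1.78. MMP13, a collagenase, rose by 4.01 (SE 0.79, limma adjusted p = 0.0128) and was not called without HS replicate 1, nor by voom. MMP2, a gelatinase that can cleave decorin and to which the patch was designed to respond, rose by 3.21 (SE 0.31, limma adjusted p = 0.000748). After 5-Fu injection, MMP2 at -1.58 (limma adjusted p = 0.0280) and ADAMTS5, an aggrecanase, at -1.09 (limma adjusted p = 0.0438) were called lower than in HS (background 1.78%). These 2 calls became 4 without 5-Fu replicate 2 and 0 without any of the 3 HS samples, without 5-Fu replicate 1 or 3, without a filter or with only the groups compared. ADAMTS5 was also lost without any NS sample, without drug-loaded MNs replicate 2 or 3 and when rescaled. In drug-loaded MNs vs NS, 3 were called higher, against 0.790% of all genes tested, a count that was 0 without NS replicate 2, 1 (MMP2) without NS replicate 1, drug-loaded MNs replicate 2 or drug-loaded MNs replicate 3, and 2 without NS replicate 3 or drug-loaded MNs replicate 1.

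Of 15 growth factors and receptors that SLRPs are known to bind, 12 were tested, with a median of 0.28 in HS vs NS and 1 called higher, TGFB3, a TGF-beta ligand, at 2.55 (SE 0.38, limma adjusted p = 0.00339), against the background of 3.53%. Of this list 3 were called lower after 5-Fu injection than in HS, and of these TGFB2 at -1.63 (limma adjusted p = 0.0387) and TGFB3 at -1.59 (limma adjusted p = 0.0424) had the largest folds, where 1.78% of all genes were called lower. The count was 0 without any of the 3 HS samples, without 5-Fu replicate 1 or 3, without a filter or with only the groups compared, and 1, IGF1R, without NS replicate 1 or drug-loaded MNs replicate 2. Of 11 collagens of the fibrils that SLRPs coat, 7 were tested, and 5 were called higher in HS than in NS with a list median of 3.75 and the background of 3.53%, led by COL1A1 at 4.34 (limma adjusted p = 0.00334) and COL1A2 at 4.18 (limma adjusted p = 0.00188). After 5-Fu injection 4 were called lower than in HS, against 1.78%. That count was 0 without HS replicate 2, without HS replicate 3 or with only the groups compared, 1 without HS replicate 1, 5-Fu replicate 1 or 5-Fu replicate 3, and 2 without NS replicate 1, without drug-loaded MNs replicate 2 or without a filter. In drug-loaded MNs vs HS, 0 genes of any of these lists were called.

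For each member but DCN, the genes with the most similar profile over the 12 samples were found by the root mean square distance between centred log2(FPKM + 1) values, as a description only. LUM was nearest to COL1A2 at 0.281 and COL3A1 at 0.322, both fibrillar collagen chains, against its own spread of 1.78. ASPN was nearest to ITGA11, a collagen-binding integrin chain, at 0.372 and COL5A2 at 0.394. BGN was nearest to NREP at 0.189 and AEBP1 at 0.198. KERA was nearest to PDGFRL at 0.273 and PTGFR at 0.323. The uncalled members had other neighbours. FMOD was nearest to KRT82, a hair keratin, at 0.283 and PADI3 at 0.320, OGN to PLXDC2 at 0.204 and FLRT2 at 0.216, and PRELP to ADAMTS3 at 0.314 and CHRDL1 at 0.324. OMD was nearest to B4GALNT3 at 0.306 and ART3 at 0.335, and PODN to GLB1 at 0.329 and SCPEP1 at 0.351. The own spread of these 5 genes was 0.426 (OGN) to 0.902 (OMD), and that of the called BGN, KERA and ASPN was 0.8, 1.1 and 1.59.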

How the data were processed

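The deposited table holds FPKM per gene and sample, which the authors made from mRNA libraries. The aligner, counting tool, strand setting and genome build are not given in the sources used here. Multiplied by gene length, 100% of the values fell within 0.05 reads of a whole number, so reads were counted back. DESeq2, applied by the authors to counts, had no part here. Samples were grouped by their labels, and all value columns were mapped. Groups were compared with limma 3.58.1 in R 4.3.3 on log2(FPKM + 1), in 1 fit of 12 samples with a mean-variance trend, for 13287 genes averaging an FPKM of 1 or more, with Benjamini-Hochberg adjustment over all of them. A call needed an adjusted p below 0.05 together with a log2 fold change larger than 1 in size. The code was tested on simulated data.

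The members, gene lists and tests were chosen with earlier results of these data known. Named genes are all members, at most the 2 called genes with the largest fold per direction, list and comparison, COL1A1, and the 2 nearest profiles of each member, of which those of DCN are not reported here. Genes named to show that a library stands apart (MFAP5, DPT, THY1, FBLN1, PDGFRB, IBSP, BGLAP, SP7, TNMD, MKX) were picked after their values had been seen, as was IGF1R. Alternatives were a pseudocount of 0.1, no filter, rescaling to total reads, limma voom on the reads, the replicate number as a block, only the groups compared, adjusted p alone, and each sample left out in turn. The ratio to fibroblast markers was added after the values had been seen.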

Additional observations from a re-analysis of the deposited data

How the results depend on the processing

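The 5 calls of HS vs NS held under all alternatives, with 5 to 6 calls when each sample was left out. In 5-Fu injection vs HS the 3 calls became 1 (ASPN) with a pseudocount of 0.1, no filter, rescaling to total reads, voom or the replicate block, 0 with only the groups compared in the fit, and 0 to 5 when each sample was left out. In drug-loaded MNs vs NS the 4 calls became 2 without a filter, 1 with the replicate block and 0 to 5 when each sample was left out. The left-out range was 0 to 1 for drug-loaded MNs vs 5-Fu injection and for 5-Fu injection vs NS, and 0 to 0 for drug-loaded MNs vs HS. The cause was not tested. The replicate numbers share no rabbit, and the deviations of same-numbered samples correlated between -0.27 and 0.44 over the 6 comparisons. In each comparison at least 1 of the 3 pairs was at 0.1 or below (5-Fu injection vs NS at 0.20, 0.09 and 0.05), so the numbers were not taken to pair the samples, and under the block HS vs NS kept its count of 5. PRELP in HS vs NS changed sign to 0.06 without NS replicate 1 and 0.25 without HS replicate 1, and with each sample left out the differences ranged in drug-loaded MNs vs HS from -1.03 to 0.06 for FMOD, -0.63 to 0.05 for KERA, -0.60 to 0.26 for PRELP (0.11 when rescaled to total reads) and -0.57 to 0.07 for PODN, and in 5-Fu injection vs HS from -0.24 to 1.11 for OMD and -0.45 to 0.03 for PODN. LUM over COL1A1 ranged from -0.13 (without HS replicate 1) to 0.30 when each sample was left out. Relative to the fibroblast markers, chosen after seeing the data, the sign changed for FMOD (-0.25) and OGN (-0.60) in HS vs NS, for OGN (0.11), KERA (0.16), PRELP (0.34) and PODN (0.11) in drug-loaded MNs vs HS and for OGN (0.18), PRELP (0.36) and PODN (0.80) in 5-Fu injection vs HS. With each sample of the compared groups left out, the first pair ranged from -0.68 to 0.21 and -0.75 to -0.49. The next 4 ranged from -0.05 to 0.26, -0.07 to 0.28, -0.03 to 0.61 and -0.06 to 0.21. The last 3 ranged from 0.00 to 0.46, -0.01 to 0.63 and 0.65 to 0.96. The sign change of OGN in HS vs NS thus remained. In 5-Fu injection vs HS, OGN relative to the markers fell to 0.00 without 5-Fu replicate 3. Without that replicate PODN had no sign change, at 0.03 as deposited and 0.80 relative to the markers. With the replicate block, the lower calls in 5-Fu injection vs HS went from 1 to 0 among the further SLRP genes, from 2 to 1 in chondroitin and dermatan sulfate synthesis, from 2 to 0 among the proteases, from 3 to 0 among the growth factors and from 4 to 2 among the collagens, and the protease calls in drug-loaded MNs vs NS from 3 to 1. Of 888 values of single genes and ratios, 802 kept direction and side of the threshold. Depth limits OMD, with as few as 28 reads.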
